A study of Drosophila melanogaster with 3 samples.

Results

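The 9 gap and head patterning genes of the fly embryo are described here through the binding sites of E(bx) at their loci: hunchback (hb), Krüppel (Kr), knirps (kni), knirps-like (knrl), giant (gt), tailless (tll), huckebein (hkb), ocelliless (oc, also called orthodenticle) and caudal (cad). They were chosen by name, 9 of 13945 protein-coding genes on the major chromosome arms. A locus is the annotated gene with 5 kb to each side, and a peak belongs to it when its summit lies inside. Of the 9708 reproducible peaks, those the authors kept after comparing the libraries, 8 belonged to these loci, and of the 29999 peaks called on the pooled reads 32 did, those 8 among them. In the lists of replicates 1, 2 and 3 there were 11 of 29999, 18 of 28972 and 38 of 30000.

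ChIP-seq, the sequencing of DNA recovered with a chromatin protein, was done in 1 group of 3 biological replicates. Each replicate was a separate sample of whole fruit fly embryos aged 0 to 16 h, both sexes pooled, from a stable transgenic line in which E(bx) is fused at its C terminus to GFP. The description names an antibody against GFP and the antibody field names E(bx), and there was no other genotype, stage or treatment to compare with. What drives the transgene, and whether the untagged gene is still present, is not given in the labels used here. Whole embryos of many stages were pooled, so weak binding in all cells and strong binding in few cells or hours cannot be told apart. Peaks were called with a control, which was not analysed here, and the lists hold no read totals, so the depth is unknown and no p-value is given. Between the lists of any pair of replicates 0 peaks were identical. Replicate 3 stood apart from the others at these loci, and results that rest on it are given by replicate.

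E(bx), also called NURF301, is the largest subunit of the nucleosome remodelling factor NURF, which slides nucleosomes with the ATPase Iswi and is known to work with the GAGA factor, a protein that binds GA-rich DNA. Gap genes encode transcription factors expressed in broad domains of the early embryo. They read the maternal gradients of Bicoid and Caudal and the signals from the egg's poles, repress one another, and pass positions on to the pair-rule and Hox genes. The head gap gene oc specifies anterior head, hb and gt anterior and further trunk regions, and Kr the central trunk. kni specifies the abdomen and, with its relative knrl, parts of the head. tll and hkb specify the termini, while cad is both a maternal posterior gradient and a zygotic posterior gene.

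Sequences around the summits show what lay at the sites compared below, at promoters except for knrl, whose reproducible summit is 1235 bp upstream. They were read from the Release 6 genome (dm6) 5′ to 3′ on the strand of the gene and centred on the summit. Capitals mark a match to any of the 7 short motifs searched on both strands, so a GAGAG match on the other strand reads CTCTC. The windows of oc (chrX:8650925-8651025, minus strand), cad (chr2L:20770535-20770635, plus strand), hkb (chr3R:4346795-4346895, minus strand) and knrl (chr3L:20621844-20621944, minus strand) are centred on the strongest reproducible peak nearest the gene's own start site. Those of hb (chr3R:8697971-8698071, minus strand) and gt (chrX:2429013-2429113, minus strand) are centred on the strongest promoter summit of the pooled list, and those of tll (chr3R:30852104-30852204, plus strand) and kni (chr3L:20695687-20695787, minus strand) on the one of replicate 3, since these 4 genes had no reproducible peak in their loci. The windows of these 4 were added after the values had been seen, and the window of Kr is not shown. In the kni line below, 40.5941 is the percentage of G and C bases in that window and not its sequence. The sequence of the kni window is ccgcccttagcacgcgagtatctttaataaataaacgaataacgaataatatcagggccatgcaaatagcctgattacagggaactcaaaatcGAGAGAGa.

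oc: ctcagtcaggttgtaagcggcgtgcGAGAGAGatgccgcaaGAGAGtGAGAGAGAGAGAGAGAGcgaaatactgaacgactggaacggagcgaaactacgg
cad: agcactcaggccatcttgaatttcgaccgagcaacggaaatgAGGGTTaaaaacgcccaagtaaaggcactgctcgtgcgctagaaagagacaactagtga
hkb: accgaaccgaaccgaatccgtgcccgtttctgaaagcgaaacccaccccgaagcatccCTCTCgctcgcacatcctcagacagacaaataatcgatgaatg
knrl: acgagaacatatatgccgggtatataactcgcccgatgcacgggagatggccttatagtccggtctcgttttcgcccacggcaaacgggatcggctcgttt
hb: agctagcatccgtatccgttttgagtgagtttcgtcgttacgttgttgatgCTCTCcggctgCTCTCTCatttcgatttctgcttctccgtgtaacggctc
gt: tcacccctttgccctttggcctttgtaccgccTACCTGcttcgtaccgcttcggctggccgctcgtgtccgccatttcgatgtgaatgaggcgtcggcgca
tll: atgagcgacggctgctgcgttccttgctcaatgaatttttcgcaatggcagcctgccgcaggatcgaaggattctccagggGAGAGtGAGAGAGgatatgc
kni: 40.5941

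The oc window held 10 GAGAG matches in 3 separate runs, the longest of them across the summit. The hb and tll windows held 3 each, the kni window 2 at its downstream end, and the hkb window 1. The capitals in gt are a match to CAGGTA on the other strand, the core that the early genome activator Zelda binds, and those in cad a match to AGGGTT, a core of the Krüppel site. The window of knrl held no match.

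Promoter peaks of E(bx) that every library placed among its 9708 peaks of highest signal (its best peaks) were found at oc and cad and at none of the other 7 genes. The share of protein-coding genes with such a peak in all 3 libraries was not computed. In the best peaks of replicates 1, 2 and 3 taken singly it was 50.3%, 50.3% and 49.0%. Kr and hkb had weak reproducible promoter peaks, and knrl had a weak reproducible peak further upstream. No reproducible peak lay in the loci of hb, kni, gt and tll. A promoter peak (a reproducible summit within 500 bp of one of the gene's own annotated transcription start sites, TSSs) was thus present at 4 of the 9 genes (44.4%), against 50.3% of all protein-coding genes. A start site shared with a close neighbour raises that background, and all 9 genes stood alone, with the nearest TSS of another gene 3112 bp (gt) to 26382 bp (oc) away. Among the 7219 protein-coding genes with no other gene's TSS within 1000 bp, 31.7% had a promoter peak. The members' share lies between both backgrounds, and the difference was not tested.

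Peaks of any position were also counted. At least 1 reproducible summit lay in 5 of the 9 loci, against 76.1% of protein-coding loci defined in the same way. The 9 loci held a median of 1 reproducible peak, against 2 for all protein-coding genes (interquartile range 1 to 4, maximum 18), whose loci can take in promoters of neighbouring genes. Of the 8 peaks, 1 lay at the promoter of such a neighbour, Pomp, beside cad. Just inside the 5 kb limit, 4429 bp past the end of cad, was that Pomp peak, and just outside it, 5185 bp past the end of oc, was a peak with a signal value of 793.

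**Figure D1:**
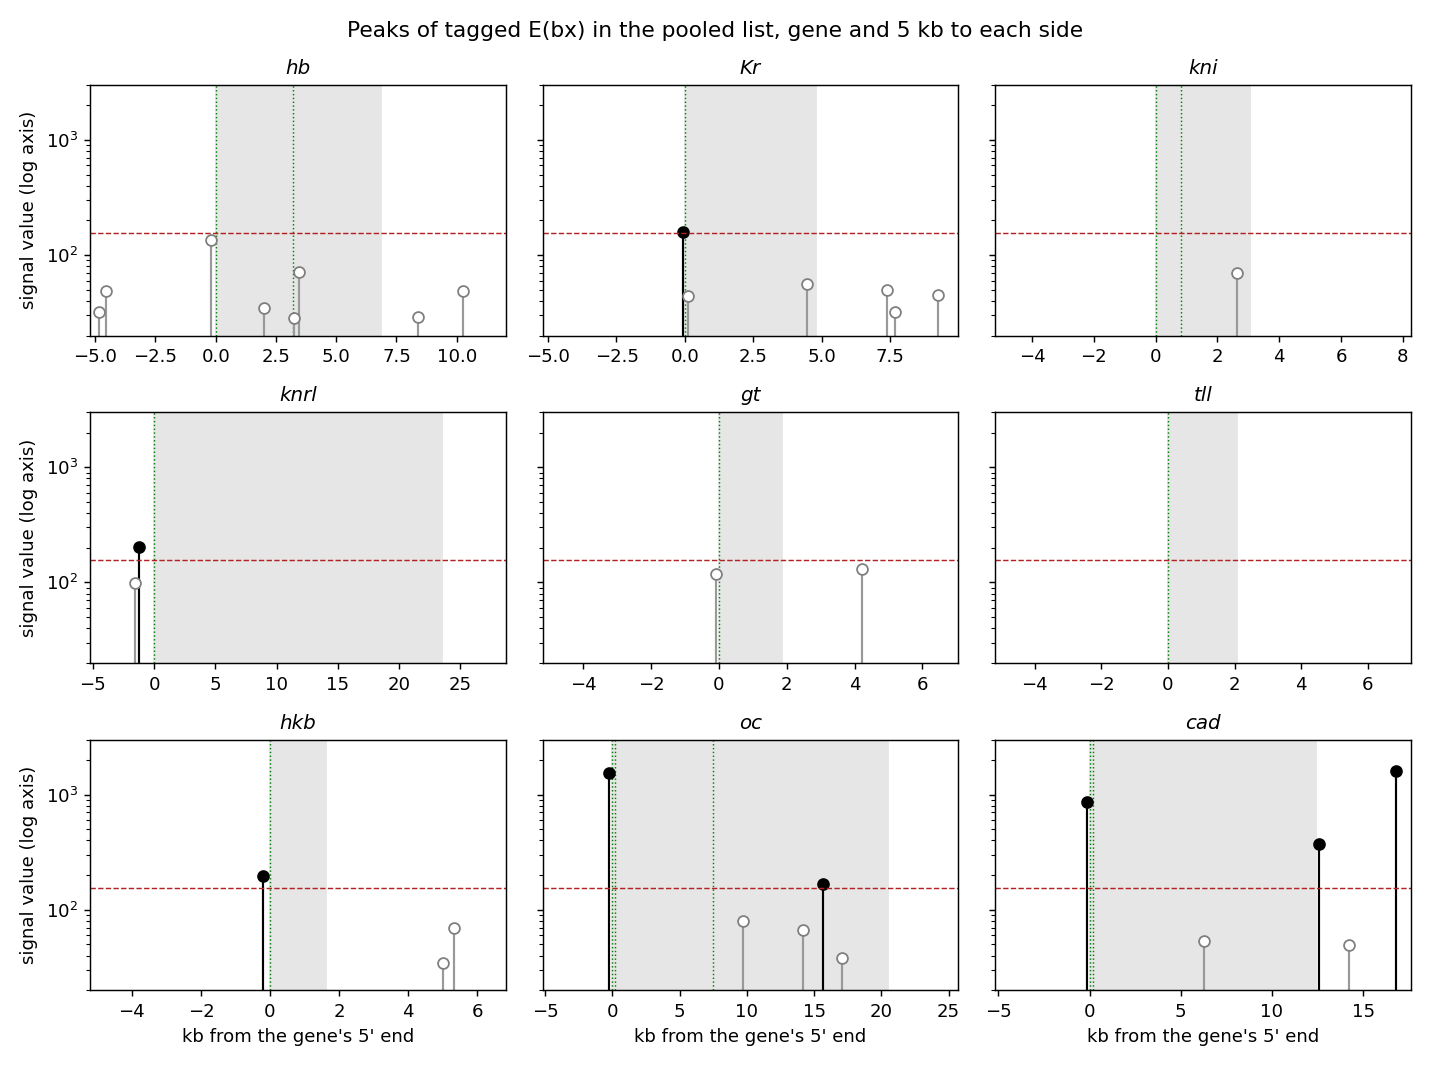
Peaks of the pooled list in the 9 loci, one panel per gene, with distance from the gene's 5′ end in kb on the x axis and the authors' signal value per peak on a logarithmic y axis. Black points are reproducible peaks, open points weaker peaks, grey bands the gene, dotted lines its start sites, and the dashed line the lowest signal value of the reproducible set (156). Every peak above 202 lies in the oc or cad panel, and the tll panel is empty.

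Each deposited peak carries a signal value, a score of the authors whose scale is not stated, so it serves to rank peaks within a list. It ran from 156 to 11961 over the reproducible set with a median of 519, and from 158 to 1618 over the 8 peaks of these loci with a median of 287. The 4 weakest, at Kr, in the oc intron, at hkb and upstream of knrl, had values of 158 to 202 and lay below 269, the value under which 25% of the set falls.

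oc, the homeobox gene of the anterior head, lies on X (8630159 to 8650681, minus strand, FBgn0004102) and carried the strongest promoter peak of the 9 genes. That peak spanned 517 bp, and its summit (8650975) lay 294 bp upstream of the start site shared by 4 of its transcripts. On the pooled reads it had a signal value of 1529.6, rank 685 of 9708. The replicates gave it values of 399, 522 and 594 in replicates 1, 2 and 3 (ranks 1005, 841 and 384 in their own lists), so each library placed it within its best 1005 peaks. No pooled summit lay within 500 bp of the third start site of oc, 7505 bp inside the gene.

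Inside oc there was a further reproducible peak, in an intron (summit 8634989), 8187 bp downstream of the nearest start site. It was weak, with a signal value of 167 (rank 9374). Its values were 33.4, 45.6 and 80.7 in replicates 1, 2 and 3, at ranks 10236, 10358 and 9824, so it was present in each library but in none among that library's best 9708 peaks. Another 3 weak pooled peaks lay in the body of oc, at signal values of 80.6, 67.3 and 38.0, of which the one at 80.6 was found in all 3 libraries and the others in replicate 3 alone.

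cad, the homeobox gene of the posterior, lies on 2L (20770731 to 20783135, plus strand, FBgn0000251). The summit of its promoter peak (20770585) lay 146 bp upstream of the first of its start sites, which are 163 bp apart, at a signal value of 861 (rank 2725). The replicates gave 214, 316 and 386 (ranks 3158, 2477 and 1950). A narrower peak of 228 bp followed at 20783303, 168 bp past the end of the gene, with a signal value of 373 (rank 6065) and replicate values of 80.0, 126 and 158 (ranks 6615, 5959 and 6222). Both were matched in the best 9708 peaks of all 3 libraries. The start site nearest to the narrower peak was that of Pomp, 4353 bp away, while the nearest one of cad was 12409 bp away.

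The strongest peak of the cad locus is not at cad. The summit (20787564) lay 92 bp before the start site of Pomp, a proteasome maturation factor gene, with a signal value of 1618 (rank 550) and replicate values of 516, 545 and 564. It is counted here because of the 5 kb rule.

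hb, the zinc finger gap gene of the anterior, lies on 3R (8690980 to 8697822, minus strand, FBgn0001180) and has an upstream and a downstream promoter 3222 bp apart. Its strongest pooled peak lay at the upstream one, 199 bp upstream of the start site, with a signal value of 135 and rank 10465, just below the reproducible set. A match within 200 bp was absent from replicate 1 and had values of 31.4 in replicate 2 (rank 12985) and 73.4 in replicate 3 (rank 10367). Replicate 1 listed a summit of its own 305 bp downstream of that start site, at a value of 8.52 and rank 25786 with a −log10 q-value of 0.267, so it is weak by the authors' own measure. At the downstream promoter the strongest pooled summit lay 238 bp downstream of that promoter's start site, with a signal value of 71.8, found in replicates 2 and 3. With 8 pooled peaks, all under the reproducible set, hb had more weak peaks than any other of the 9 loci, the others holding 0 to 5.

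Kr, the zinc finger gap gene of the central trunk, lies on 2R (25226611 to 25231394, plus strand, FBgn0001325) within an intron of the gene CG9380. Its promoter peak, with the summit 85 bp upstream of the start site at 25226526, had a signal value of 158 and rank 9646, among the lowest of the reproducible set. It was matched in replicate 3, at a value of 133 and rank 7063. In the whole lists of replicates 1 and 2 no summit of any strength lay in the Kr locus. Replicate 3 listed 5 there, and each lay within 200 bp of a pooled peak of the locus, which held 6.

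kni and knrl encode related nuclear receptor proteins and lie on 3L with 71.7 kb between them. In the knrl locus (20597141 to 20620659, minus strand, FBgn0001323) the reproducible summit (20621894) was 1235 bp upstream of the start site, with a signal value of 202 (rank 8445). All 3 libraries held a match, at values of 34.9, 43.9 and 147 (ranks 9989, 10575 and 6585), with the best rank in replicate 3. That library also had a summit 154 bp upstream of the knrl start site (value 83.6, rank 9631) that the pooled list did not hold.

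kni (20692330 to 20695378, minus strand, FBgn0001320) had no reproducible peak and 1 weak pooled one. This peak lay in the 3′ UTR, 1802 bp downstream of the nearest start site, with a signal value of 70.5 (rank 14991) and a match in replicate 3 alone (45.7, rank 13887). A summit 359 bp upstream of a start site was listed in replicate 3 only, at a value of 18.3 and rank 28174, near the end of that list.

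gt, the bZIP gap gene, lies on X (2427113 to 2428967, minus strand, FBgn0001150). Its pooled promoter summit lay 96 bp upstream of the start site, with a signal value of 119 (rank 11163). It was absent from replicate 1 and had values of 14.7 in replicate 2 (rank 27491) and 71.8 in replicate 3 (rank 10504). The other pooled peak of the locus, 2373 bp past the end of gt and nearest to the start site of CG32797, went the other way: its values were 23.1, 74.8 and 32.3 in replicates 1, 2 and 3, with the best rank (7946) in replicate 2.

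At the terminal gap genes, replicate 3 alone listed peaks. tll, a nuclear receptor gene on 3R (30852315 to 30854400, plus strand, FBgn0003720), had no pooled peak in its locus, but replicate 3 had a summit 161 bp upstream of the start site at a value of 99.3 and rank 8596, with a −log10 q-value of 4.46. The oc promoter peak (rank 384) and the weak kni peak (rank 13887) of replicate 3 had the same q-value, so it does not set the tll peak apart. hkb, a zinc finger gene also on 3R (4345015 to 4346646, minus strand, FBgn0261434), had a reproducible promoter peak (summit 4346845) 199 bp before the start site, with a signal value of 198 (rank 8535). Its match in replicate 3 had a value of 113 and rank 7884, and replicates 1 and 2 held no summit in either the hkb or the tll locus.

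The libraries were then set side by side. In the best 9708 peaks of each library, a promoter summit was found at 2 of the 9 genes in replicate 1 (oc and cad), 2 in replicate 2 (the same genes) and 6 in replicate 3 (Kr, knrl, tll, hkb, oc and cad). Over all protein-coding genes the shares were 50.3%, 50.3% and 49.0%, nearly equal. For genes that stand alone, as the 9 do, the share was computed for the reproducible set only (31.7%) and not by replicate. The whole lists, which include background by the authors' description, gave 3, 4 and 9 of the 9 genes, against 64.0%, 63.5% and 58.8% of protein-coding genes. All 3 whole lists together held a promoter summit at hb, oc and cad, against 54.4% of protein-coding genes, and the hb summit of replicate 1 is the one at rank 25786. Peaks of any position in the whole lists of replicates 1, 2 and 3 averaged 1.22, 2 and 4.22 per member locus. Over all protein-coding loci they averaged 5.28, 5.15 and 5.57, so by this count the members lay below all genes in replicate 3 too.

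A promoter summit in the whole list of replicate 3 and in neither other list was present at 5 of the 9 genes (Kr, kni, knrl, tll and hkb), against 293 of 13945 protein-coding genes (2.10%). No depth, RNA or quality value of the libraries is in the files, so the part of library quality in this difference was not tested. With each library's best peaks in place of the whole lists the count was 4 of 9 (Kr, knrl, tll and hkb), against 1.27% of protein-coding genes. The pooled list, which mixes all reads, held a promoter summit at 6 of the 9 genes, against 61.5% of protein-coding genes, and those at Kr and hkb were matched in replicate 3 alone.

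**Figure D2:**
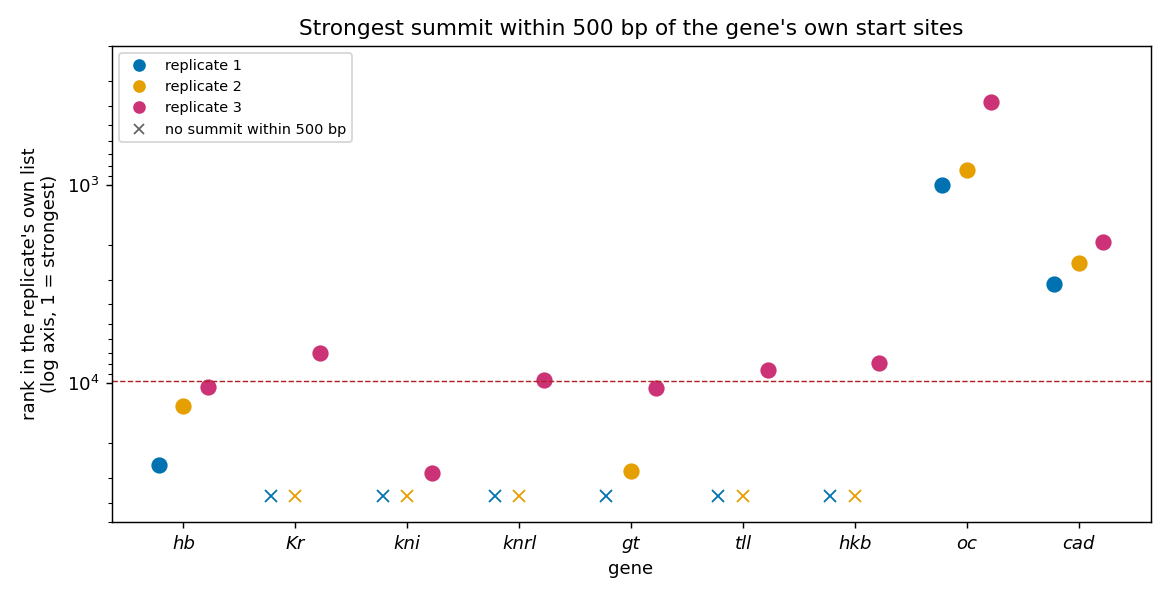
Rank of the strongest summit within 500 bp of the gene's own start sites in each replicate's whole list (logarithmic axis, stronger ranks higher up), for the 9 genes. Crosses mark libraries with no such summit and are drawn below the lowest rank, and the dashed line is rank 9708. The oc and cad points of all 3 libraries lie above the line, while at Kr, kni, knrl, tll and hkb replicate 3 alone has a point.

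**Figure D3:**
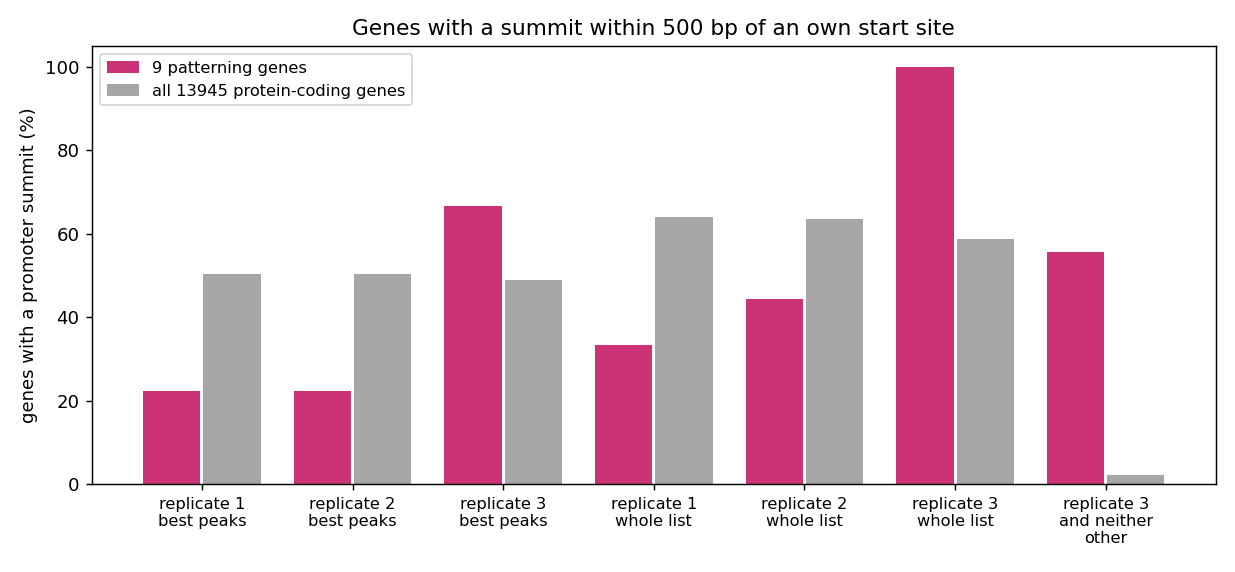
Share of genes with a promoter summit, for the 9 patterning genes and for all protein-coding genes, in each replicate's best 9708 peaks, in the whole lists, and in replicate 3 with neither other list. Bars are percentages of genes with no error, as each is 1 count. Replicates 1 and 2 put the 9 genes below all genes, replicate 3 above them, and the last pair is 55.6% against 2.10%. Shares for genes that stand alone, as the 9 do, were not computed by replicate.

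The weak peaks were matched in the same way. Of the 24 pooled peaks of these loci outside the reproducible set, 3 were matched within 200 bp in the whole list of replicate 1, 10 in replicate 2 and 19 in replicate 3 (12.5%, 41.7% and 79.2%). Over all 20291 such peaks the shares were 52.9%, 52.6% and 64.1%. A match in replicate 3 and neither other list was found for 10 of the 24, against 4065 of the 20291. Of the 8 reproducible peaks, 4, 4 and 7 were matched in the best peaks of replicates 1, 2 and 3, against 91.4%, 91.5% and 87.8% of the whole set. All 3 libraries had a match at 4 of the 8 (50%, 95% Wilson interval 21.5 to 78.5, counting error only), against 77.1% of the set. A match in the best peaks of replicate 3 and of neither other was found for 3 of the 8 (Kr, hkb and the knrl peak), against 3.82%. The 4 matched in all libraries are the promoters of oc and cad, the peak past the end of cad, and Pomp. Peaks of one locus share their source, and the reproducible set was made from these same libraries, so these shares are a description.

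The distance of the promoter summits from the start site was compared next. The 4 reproducible promoter summits were 85 bp (Kr), 146 bp (cad), 199 bp (hkb) and 294 bp (oc) upstream of the nearest own start site, a median of -172.5 bp. For protein-coding genes that have a promoter peak and stand alone by the same distance (2289), this median was -48 bp (interquartile range -116 to -18). Kr lay within that range and the other 3 upstream of it, and no test was made.

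GA repeats were counted under these peaks. Windows of 100 bp to each side of the summit held GAGAG, the core of the GAGA factor site, at 5 of the 8 reproducible peaks (Kr, knrl, hkb, and the promoters of oc and cad), against 27.9% of all 9708 windows and 22.1% of windows 1000 bp aside. All 4 promoter windows of the members held it, against 23.5% of the 7196 reproducible promoter peaks. Among the 24 weak peaks 12 windows held it, against 32.2% of all weak peaks. At the strongest promoter summit of replicate 3, 8 of the 9 genes had a match, all except cad, whose summit in that list lies 31 bp further upstream.

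The background was 26.9% of the 12956 promoter summits of replicate 3, counted per summit and not per gene. Counted per gene it was 31.4% of the 293 genes with a promoter summit in replicate 3 and neither other list. At the strongest replicate 3 summit of the 7587 protein-coding genes with a promoter summit in all 3 whole lists it was 21.8%. Overlapping matches within a repeat count once per window. Of the other motifs, CAGGTA (Zelda) was present at 1 of the 8 peaks (Kr), against 4.09% of all windows. TTTATG (Caudal) was at 1 (Pomp), against 17.2%. TTTTTTT (Hunchback) and AGGGTT (Krüppel) were at 1 each (cad), against 18.3% and 6.26%. TAATCC (Bicoid) and TATCGATA (DREF, a factor of housekeeping promoters) were at none, against 4.83% and 9.52%. A match describes letters in a window and not a bound site.

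Other genes of the anterior-posterior system were set beside the 9, from lists that were fixed by name with earlier results known. All 13 head and regional genes had a reproducible promoter peak (ems, btd, slp1, slp2, croc, cnc, fkh, D, nub, pdm2, Sp1, tsh and opa), against 4 of the 9 members and 50.3% of protein-coding genes. The strongest were btd (1079), a head gap gene of the zinc finger family, cnc (1075), a bZIP gene of the mandibular segment, ems (834), a homeobox head gap gene, and opa (758), a zinc finger pair-rule gene. At all 13 the whole list of each replicate held a promoter summit. This was so at 3 of the 9 members and at 54.4% of protein-coding genes.

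Their signal values were moderate, 189 (fkh) to 1079, with a median of 456 and 5 of the 13 at or above the median of all promoter peaks (614). The 4 members with a promoter peak had a median of 529.8, and 2 of them lay at or above that value. The promoter summits of the 13 head and regional genes lay a median of -180 bp from the start site. GAGAG was in 10 of the 13 windows (not in those of cnc, fkh and opa), against 23.5% of all reproducible promoter peaks. btd ranked 2021, 1481 and 2041 in replicates 1, 2 and 3, so its best rank was in replicate 2, while opa ranked 4250, 3586 and 2205, with its best rank in replicate 3. Replicate 3 also held the best rank of ems, slp2, croc, cnc, D, nub, pdm2 and Sp1. The best rank was in replicate 2 at slp1 and fkh, and in replicate 1 at tsh. The best peaks of replicates 1, 2 and 3 held a promoter summit at 10, 13 and 12 of the 13 genes. Over protein-coding genes the shares were 50.3%, 50.3% and 49.0%.

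Maternal and terminal genes were divided. A promoter peak was found at 7 of the 12, against 50.3% of protein-coding genes, namely bcd (2682, the maternal anterior determinant), gro (1762, a corepressor), cic (1477, a repressor relieved by terminal signalling), nanos (1399, the posterior determinant), pum (775), Stat92E (488) and tor (308, the receptor of the terminal system). aub, osk, trk and tsl had none, and neither had the Zelda gene zld. Their pooled promoter summits had values of 122 (zld), 53.0 (aub) and 32.8 (osk), and trk and tsl had none. At nanos and tor the summits lay at -370 bp and -376 bp from the start site, and another gene's TSS lies 221 bp (CG11779) and 689 bp (CG1941) from theirs, so which gene these peaks belong to cannot be told apart. At bcd the replicates gave 875, 1005 and 824 (ranks 63, 66 and 33). GAGAG was present in 2 of the 7 windows, near the 23.5% of all reproducible promoter peaks. Of the 12 genes, 1 (aub) had its promoter summit in replicate 3 and neither other list, against 2.10% of protein-coding genes.

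**Figure D4:**
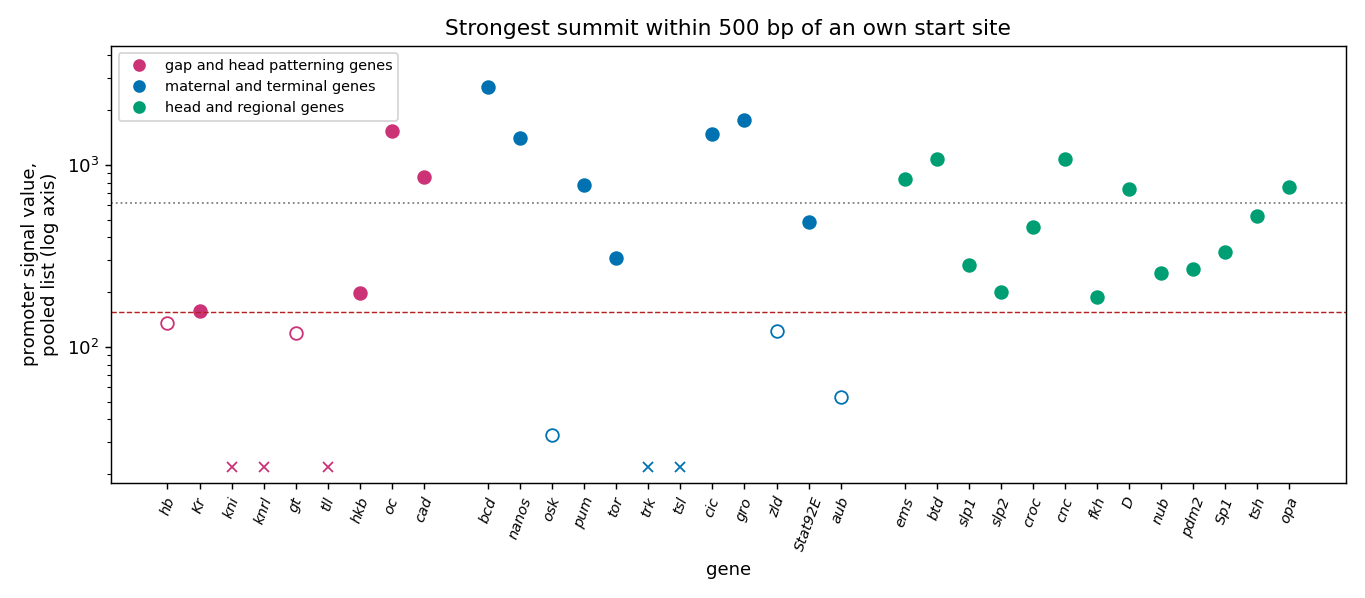
Signal value of the strongest summit within 500 bp of an own start site in the pooled list (logarithmic axis) for the 9 members, the 12 maternal and terminal genes and the 13 head and regional genes. Filled points are reproducible peaks, open points weaker pooled peaks and crosses, drawn below all points, genes with none. The dashed line is the lowest value of the reproducible set (156) and the dotted line the median of all reproducible promoter peaks (614). All 13 head and regional genes have filled points, while 5 of the 9 members do not.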

How the data were processed

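The file records deposited with the data state that each replicate's dm6 alignments, and all 3 pooled, were set against a control for peak calling, and that the reproducible (optimal IDR, irreproducible discovery rate) set derives from these lists. Not given in the sources used here: aligner, peak caller, its settings, and the IDR cutoff. The deposited signal value per peak (column 7) has no stated scale, and the reproducible set was found to be the 9708 pooled peaks of highest signal. The deposited −log10 q-value (column 9) was 4.39 throughout that set.

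Summits were the deposited start plus offset, written counting from 1. Genes and start sites came from Ensembl release 115, without transposable elements, and sequence from the Release 6 assembly, whose arms no peak overran. 2 list symbols were matched by synonym (nos as nanos, vfl as zld). A library's best peaks are its 9708 of highest signal, and peaks match within 200 bp. Shares were computed in Python 3.11.15 with pandas 2.3.3, numpy 2.4.6 and scipy 1.17.1, after the helpers had been tested on simulated data. No model was fitted and no test was made, because there is 1 group and the members and lists were chosen with earlier results of these data known. The named genes are all 9 members, genes nearest to their peaks, and the 4 strongest and first 4 peakless genes of each other list, with further ones, the windows of hb, gt, tll and kni, and the counts over whole replicate lists chosen after their values were seen. Alternatives were other windows, thresholds, flanks and matching rules, and leaving out each replicate.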

Additional observations from a re-analysis of the deposited data

How the results depend on the processing

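The count of members with a promoter peak was 4 of 9 and stayed at 3 to 6 with a narrower or wider start site window, protein-coding start sites alone or all pooled peaks. In the stronger part of the reproducible set (signal at or above its median) it was 2, with 11 of the 25 other patterning genes in place of 20. Replicates 1, 2 and 3 were also left out in turn, which keeps only peaks that both remaining libraries match because the set could not be remade. The counts were 2 to 2 members, 16 to 19 other genes, and 4 to 4 member loci peaks in place of 8. The promoter share of these peaks (summit within 500 bp of any TSS) was 75 to 75% in place of 62.5%, which is 5 of 8. Over the whole reproducible set it was 74.1%, and it was not computed for the whole set without a replicate. Member loci peaks matched in both remaining libraries numbered 4 to 4. The members kept in each case were oc and cad, while Kr and hkb were matched in replicate 3 alone. With all pooled peaks the share of protein-coding genes was 61.5%. That share was not computed for the other windows, the stronger part of the set or the sets without a replicate. The changes in these counts are therefore not read as particular to these genes. The 8 peaks became 14 with a flank of 10 kb and 3 in the stronger part of the set. Those 3 were the promoter peaks of oc, cad and the neighbour Pomp, so the promoter share there was 100%. The share over all peaks of the stronger part was not computed. With motif windows of 50 bp to each side GAGAG was at 3 of the 8 peaks in place of 5, against 1748 of all 9708 windows, and the Zelda, Caudal and Hunchback motifs were at 0 each in place of 1, against 1.99%, 7.52% and 6.74%. With 200 bp to each side GAGAG was at 5 of the 8, against 41.3%, and those motifs and that of Krüppel were at 2 each, against 8.19%, 34.7%, 36.0% and (Krüppel) 971 of 9708 windows.

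Alternatives chosen after seeing the data concerned the weak peaks and the whole lists. The 24 weak peaks became 15 with a flank of 2 kb and 38 with 10 kb. With the narrower window, 1 member in replicate 1, 2 in replicate 2 and 7 in replicate 3 had a promoter summit, in place of 3, 4 and 9, against 56.7%, 56.4% and 52.6% of protein-coding genes. Keeping peaks with a −log10 q-value of at least 2 gave 2, 2 and 8, against 56.4%, 53.5% and 54.9%. The count in replicate 3 and neither other list was 5 with the narrower window (2.47% of protein-coding genes), 5 with the wider one (2.27%), 4 with best peaks (1.27%) and 6 with that q-value minimum (2.25%). Kr, knrl, tll and hkb were in each of these counts, while hb, kni and gt were in some. The causes of these changes were not tested. Depth is unknown, so a missing weak peak in one library was not shown to be absent. No paired analysis was possible because there is only 1 group.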
